A study of Mus musculus with 6 samples.

Results

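The 9 genes described here encode the core factors of nonsense-mediated mRNA decay (NMD): Upf1, Upf2, Upf3a, Upf3b, Smg1, Smg5, Smg6, Smg8 and Smg9. They were chosen by name, though with earlier results of these data known. They are 9 of the 42450 genes in the deposited table of total RNA from mouse embryonic stem cells. The study compared parental male E14tg2a.4 cells (WT) with Srrm2+/- cells, a derivative of the same line in which a gene-trap cassette truncates 1 allele of Srrm2, and sequenced 3 replicates of each, 6 libraries together. SRRM2 is a splicing factor of nuclear speckles, and the comparison asked how a reduced dose of it changes gene expression in pluripotent cells. Both groups were grown on gelatine with leukaemia inhibitory factor (LIF), and moved to serum-free medium with LIF before collection. Srrm2+/- is 1 gene-trap line. Per the study's methods the replicates were thawed from batches frozen at different passages, and the WT passages were later than the Srrm2+/- passages, so passage and genotype cannot be told apart.

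NMD removes mRNAs whose stop codon is read too early. The helicase UPF1 meets the terminating ribosome, and UPF2 and UPF3 link it to an exon junction complex (EJC) left by splicing downstream of the stop codon. The kinase SMG1, held in a complex with SMG8 and SMG9, then phosphorylates UPF1, and phosphorylated UPF1 recruits the endonuclease SMG6 or the adaptor SMG5, which lead the mRNA to decay. Because 1 of its triggers is a splice junction after a stop codon, NMD reads the output of splicing, and many alternatively spliced isoforms are its substrates.

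Of the 9 genes, Smg1, Smg5 and Smg6 each have an annotated isoform of the NMD class themselves, 1 of 10 annotated transcripts for Smg1, 1 of 9 for Smg5 and 1 of 6 for Smg6. The ends of their reading frames are printed here next to those of the principal coding transcripts, to show where translation would end in each. Each line gives the last 27 bases before the stop codon in lower case, then the stop codon in capitals, 5′ to 3′ on the coding strand, from GENCODE release M21 on GRCm38.
Smg1-201, coding: ctgtatgaaggttggacagcttgggtgTGA
Smg1-204, NMD class: atgacagagaccgaagactggctactgTAA
Smg5-201, coding: ttctacaggcagtggaaggagattggtTGA
Smg5-202, NMD class: gtggaagccatgtattgctacttgcgcTGA
Smg6-201, coding: gccttccttacgtgggcccaggtgggcTGA
Smg6-202, NMD class: gatgatggagacattccctgcagtggcTGA

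The stop codon of Smg1-204 lies at chr7:118210780-118210782 on the minus strand and has 59 exon junctions after it, the last of them 10397 bases downstream in the spliced transcript. That of Smg1-201 lies at chr7:118135541-118135543, in the last exon, with 0 junctions after it. For Smg5-202 the stop codon is split by an intron within chr3:88347595-88349111 on the plus strand and has 3 junctions after it, the last 434 bases downstream, against 0 for Smg5-201 (chr3:88361106-88361108). The stop codon of Smg6-202 at chr11:74990094-74990096 on the plus strand is followed by 9 junctions over 1379 bases, against 0 for Smg6-201 (chr11:75162948-75162950). The coding part annotated for the NMD-class isoforms is short, 178 bases for Smg1-204, 541 for Smg5-202 and 1070 for Smg6-202, against 10977, 3054 and 4257 bases in the coding transcripts. None of these lengths of the NMD-class isoforms is a multiple of the codon length, so these may not be complete reading frames. Principal transcripts of the 9 genes had 4 exons (Smg8) to 63 exons (Smg1) and 3′ untranslated regions of 221 bases (Smg8) to 4233 bases (Smg1). Of these, 0 of 9 had an exon junction more than 50 bases after the stop codon. Whether these principal transcripts are themselves substrates of NMD was not tested. The deposited counts add the isoforms of a gene together, so isoforms of Smg1, Smg5 and Smg6 were not separated here.

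The files listed 54151433 to 69933421 estimated counts per library, with a mean of 55618939 ± 2495016 for WT and 66739843 ± 4962333 for Srrm2+/- (SD, n = 3 each). Levels are given as CPM, counts relative to the TMM-scaled size of the library. Log2 fold changes are Srrm2+/- against WT, from a quasi-likelihood fit (edgeR) across the 18905 genes that passed a filter on low counts, and a gene was called at a Benjamini-Hochberg adjusted p under 0.05. Unless another tool is named, adjusted p-values are those of edgeR. In bulk RNA, fewer cells of a type and less RNA per cell cannot be told apart. Srrm2, which checks the labels, gave 91.2, 98.3 and 97.7 CPM in WT and 62.3, 56.2 and 59.6 CPM in Srrm2+/-, a change of -38% (95% interval -42.7% to -32.9%, edgeR adjusted p 2.38e-05). All 6 markers of pluripotent stem cells were present, with a summed level of 2986 to 3096 CPM in WT and 2460 to 2572 CPM in Srrm2+/-, and 4 of them fell. The 5 fibroblast markers summed to at most 9.84 CPM in any library, though 3 of them rose. Mesoderm markers summed to at most 4.88 CPM (2 of 3 rose), endoderm markers to at most 1.5 CPM and trophoblast markers to at most 0.768 CPM. Of the 2 endoderm markers tested, 0 were called. The trophoblast marker Cdx2 had 0 counts in every WT library and 5, 8 and 17 in Srrm2+/-, and did not pass the filter on low counts. Elf5, the other trophoblast marker, was not called (log2 fold change -0.33). The 2 neural markers summed to 26.87 to 29.52 CPM in WT and 22.61 to 23.68 CPM in Srrm2+/-. Of these, Pax6 fell, while Sox1 was not called (log2 fold change 0.31). The part of these shifts in the values below was not tested.

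None of the 9 NMD factors passed the test between Srrm2+/- and WT, whereas 25.3% of all tested genes did. Among protein-coding genes in the same range of expression the share called was 33.1% (2108 of 6374). All 9 passed the filter on low counts, with 767 to 15124 counts per library. By sign 7 were lower and 2 higher, their median log2 fold change was -0.05 against 0 over all genes tested, and the range was -0.19 (Upf2) to 0.09 (Upf1). Standard errors of these log2 fold changes lay between 0.04 and 0.09. The 95% intervals of their relative changes together ran from -23.2% to 18.3%, so a change as large as that of Srrm2 lay outside every one of them. At an unadjusted p under 0.05, 1 of 9 remained by edgeR (Upf3a), 1 by limma voom (Upf3a) and 1 by DESeq2 (Upf2), and 0 after adjustment by each tool. A gene called after adjustment also passes the unadjusted threshold. The share of all tested genes passing it was therefore at least 25.3% by edgeR and limma voom and 24.9% by DESeq2. A small fold change was common at this level: 71% of the 6374 protein-coding genes had an absolute log2 fold change no larger than the 0.1861 of Upf2.

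**Figure D1:**
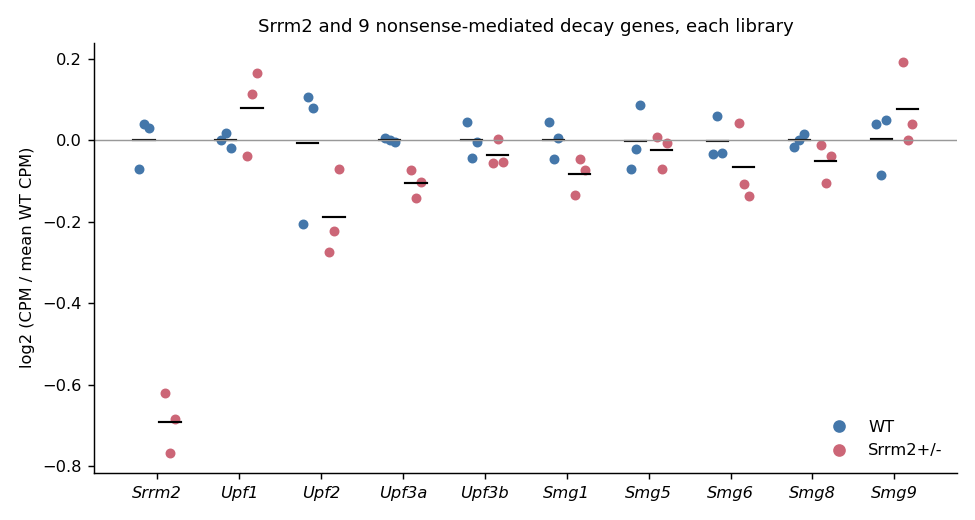
Level of Srrm2 and of the 9 NMD genes in each library, as log2 of the CPM over the mean CPM of WT. Each point is 1 library (blue WT, red Srrm2+/-, n = 3 each) and the bar is the mean of the log2 values. Srrm2 sits 0.69 lower in Srrm2+/-, while the NMD genes lie within 0.3 of the WT mean in every library and the groups separate for Upf3a alone among them.

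UPF1 is the RNA helicase on which all branches of the pathway depend. Upf1 (ENSMUSG00000058301, chr8:70331525-70353278, minus strand) gave 23.2, 23.5 and 22.9 CPM in WT and 22.6, 25.1 and 26.0 CPM in Srrm2+/-. Srrm2+/- replicates 2 and 3 lay above every WT library and replicate 1 lay below them, so the groups overlapped. The means were 23.2 ± 0.347 and 24.6 ± 1.76 CPM (SD, n = 3 each), a difference of 6.1% (95% interval -3.54% to 16.7%, adjusted p 0.356). Exons of Upf1 share 68 bases with Cers1 and 63 bases with Gdf1 on the opposite strand, a small part of its 4618 exon bases.

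UPF2 bridges UPF1 and UPF3. Upf2 (ENSMUSG00000043241, chr2:5951469-6056703, plus strand) had the largest absolute log2 fold change of the set, at 49.8, 61.8 and 60.6 CPM in WT and 47.5, 49.2 and 54.7 CPM in Srrm2+/-. WT replicate 1 lay among the Srrm2+/- libraries, and the other two WT libraries lay above all of them. The means were 57.4 ± 6.59 and 50.5 ± 3.75 CPM (SD, n = 3 each), a difference of -12.1%, with an interval of -23.2% to 0.597% and a log2 fold change of -0.19 (SE 0.09, adjusted p 0.155). With all libraries Upf2 was not called. Without WT replicate 1 the log2 fold change was -0.28 and the gene was called lower (adjusted p 0.0189), whereas leaving out any other library gave values down to -0.13 and no call. The 3 genes whose levels ran most like those of Upf2, by the root mean square difference of centred log2 CPM over the 6 libraries among 11961 genes, were Etfb (0.0251), Gpkow (0.0326) and the long non-coding Gm17300 (0.037), and 0 of these 3 were called. These 3 were picked for likeness to Upf2 in the same 6 libraries, so their lack of calls is no separate result. The low WT replicate 1 of Etfb follows from this choice too, at 36.2 CPM against 43.4 and 44.0 CPM in the other WT libraries.

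UPF3A and UPF3B are paralogues that contact the EJC. UPF3B is the stronger activator of decay and its gene lies on the X chromosome. Upf3a (ENSMUSG00000038398, chr8:13785615-13799193, plus strand) gave 32.2, 32.1 and 32.0 CPM in WT and 30.5, 29.1 and 29.9 CPM in Srrm2+/-. These libraries were close within each group, and no Srrm2+/- library reached the WT range, which held for 1 of 9 members against 41.4% of all tested genes. The means of 32.1 ± 0.101 and 29.8 ± 0.681 CPM (SD, n = 3 each) differed by -6.98%, with an interval of -13.2% to -0.35%, which missed the threshold after adjustment (log2 fold change -0.10, SE 0.04, unadjusted p 0.0414, adjusted p 0.119). Upf3b (ENSMUSG00000036572, chrX:37091678-37110322, minus strand) gave 80.6, 75.8 and 77.9 CPM in WT and 75.1, 78.3 and 75.3 CPM in Srrm2+/-. The groups overlapped and differed by -2.4% (95% interval -8.37% to 3.95%, adjusted p 0.586).

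The balance of the paralogues was compared as the ratio of their CPM in each library. Upf3b stood 2.50-, 2.36- and 2.44-fold above Upf3a in WT and 2.46-, 2.69- and 2.52-fold above it in Srrm2+/-. On the log2 scale the ratio went from 1.28 ± 0.041 (WT) to 1.35 ± 0.066 (SD, n = 3 each). That shift of 0.07 was not separated from the spread of the libraries by an exact two-sided permutation test (p = 0.2, adjusted over 4 ratios 0.4), whose smallest possible p with 3 against 3 is 0.1.

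SMG1 is the kinase that phosphorylates UPF1 and a member of the phosphatidylinositol 3-kinase-related kinase (PIKK) family. Smg1 (ENSMUSG00000030655, chr7:118131308-118243670, minus strand) was the most abundant of the 9 by counts, at 233, 219 and 227 CPM in WT and 206, 219 and 215 CPM in Srrm2+/-. Srrm2+/- replicates 1 and 3 lay below all WT libraries, and replicate 2 lay at the level of the lowest of them. The means were 226 ± 7.01 and 213 ± 6.95 CPM (SD, n = 3 each), a difference of -5.66% with an interval of -11.7% to 0.802% (log2 fold change -0.08, SE 0.04, adjusted p 0.189).

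SMG8 and SMG9 bind SMG1 and hold the kinase in check until it is needed. Smg8 (ENSMUSG00000020495, chr11:87077732-87086774, minus strand) was at 26.9, 27.2 and 27.5 CPM in WT and 27.0, 25.3 and 26.5 CPM in Srrm2+/-. One value in Srrm2+/- lay inside the narrow WT range and the others below it, a mean difference of -3.52% (95% interval -10.4% to 3.91%, adjusted p 0.482). Smg9 (ENSMUSG00000002210, chr7:24399619-24422778, plus strand) had the lowest CPM of the set, 14.5, 13.3 and 14.6 in WT and 16.1, 14.1 and 14.5 in Srrm2+/-. Only Srrm2+/- replicate 1 exceeded the WT libraries, and the means differed by 5.64% (95% interval -5.68% to 18.3%, adjusted p 0.481). The log2 ratio of Smg8 to Smg1 was -3.06 ± 0.054 (WT) against -3.02 ± 0.092 (SD, n = 3 each; exact permutation p = 0.7, adjusted 0.7). For Smg9 to Smg1 it was -4.00 ± 0.045 (WT) against -3.84 ± 0.148 (SD, n = 3 each; exact permutation p = 0.2, adjusted 0.4). Neither ratio of regulatory subunit to kinase was separated from the spread of the libraries.

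SMG6 cleaves the substrate near the stop codon, while SMG5 brings deadenylation and decapping enzymes to it. Smg5 (ENSMUSG00000001415, chr3:88336260-88362338, plus strand) gave 201, 208 and 224 CPM in WT and 212, 201 and 210 CPM in Srrm2+/-. The groups overlapped over most of their range, with a difference of -1.37% (95% interval -8.57% to 6.38%, adjusted p 0.811), and its sign turned when WT replicate 3 or Srrm2+/- replicate 2 was left out (log2 fold changes 0.03 and 0.0048). Smg6 (ENSMUSG00000038290, chr11:74925823-75164448, plus strand) gave 42.5, 45.3 and 42.6 CPM in WT and 44.8, 40.4 and 39.6 CPM in Srrm2+/-. Here Srrm2+/- replicate 1 stood with the WT libraries and the other two below them, a mean difference of -4.26% (95% interval -12.6% to 4.82%, adjusted p 0.485). Smg6 exons share 126 bases with Srr on the opposite strand. The log2 ratio of Smg5 to Smg6, the branch points of the pathway after UPF1, was 2.28 ± 0.102 (WT) against 2.32 ± 0.084 (SD, n = 3 each; exact permutation p = 0.6, adjusted 0.7).

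**Figure D2:**
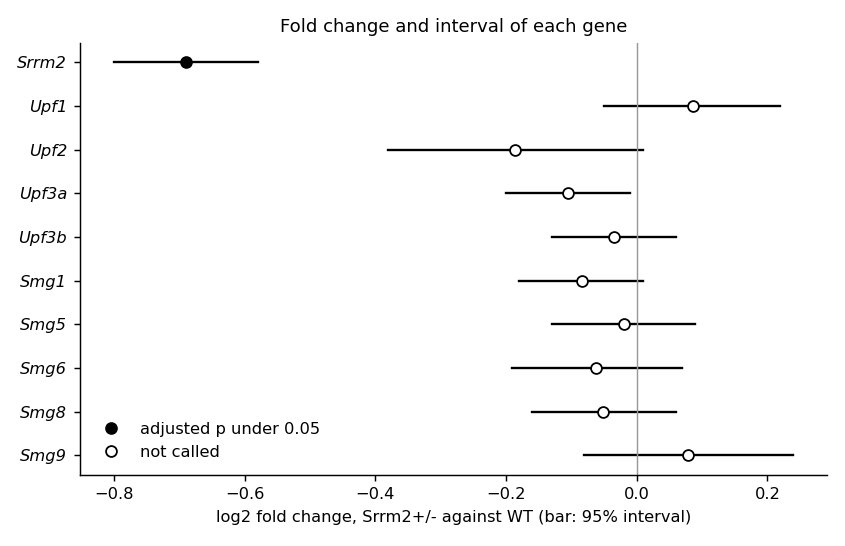
Log2 fold change of Srrm2 and the 9 NMD genes, Srrm2+/- against WT, with the 95% interval from the quasi-likelihood fit as a bar. The filled point passed an adjusted p under 0.05 and the open points did not. Srrm2 stands alone at -0.69, and the intervals of the NMD genes overlap 0 except that of Upf3a, which ends just below it.

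Summed over the 9 genes, the level was 703.9, 705.5 and 728.6 CPM in WT and 681.5, 682.3 and 692.1 CPM in Srrm2+/-. Mean sums were 713 ± 13.8 and 685 ± 5.91 CPM (SD, n = 3 each), 3.84% lower in Srrm2+/-, given as a description with no test. Smg1 and Smg5 made up 61.3% of the WT sum, so the sum mostly follows these genes.

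Levels of different genes were compared per length, as CPM per kb of annotated exon. Smg5 had the highest level at 30.3 ± 1.67 CPM per kb in WT (SD, n = 3), in the 91.1st percentile of 14704 protein-coding genes. Upf3b followed at 19.5 ± 0.598 CPM per kb. Upf2 (10.5 ± 1.2), Smg1 (9.43 ± 0.292) and Smg8 (8.46 ± 0.0871 CPM per kb) formed a middle range. The lowest levels were those of Upf3a (5.47 ± 0.0173), Smg6 (5.14 ± 0.186), Upf1 (5.02 ± 0.0751) and Smg9 (3.82 ± 0.202 CPM per kb, the 55.7th percentile). All 9 therefore lay above the median of protein-coding genes, and the highest and lowest differed 7.67-fold over the 6 libraries. Neighbours in this order did not overlap between libraries of a group, except Upf2 with Smg1 and Smg6 with Upf1 in both groups and Upf3a with Smg6 in Srrm2+/-. In Srrm2+/- the means of the closest genes changed places, with Upf1 at 5.33 ± 0.38, Upf3a at 5.09 ± 0.116 and Smg6 at 4.92 ± 0.332 CPM per kb (SD, n = 3 each). The order depends on the length used. Per kb of the longest annotated transcript, Smg1 (14.5) stood above Upf2 (11.1), Upf3a (8.67) above Smg8 (8.46) and Smg9 (6.3) above Upf1 (5.02 CPM per kb in WT). By that length the highest and lowest differed 9.1-fold over the 6 libraries.

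**Figure D3:**
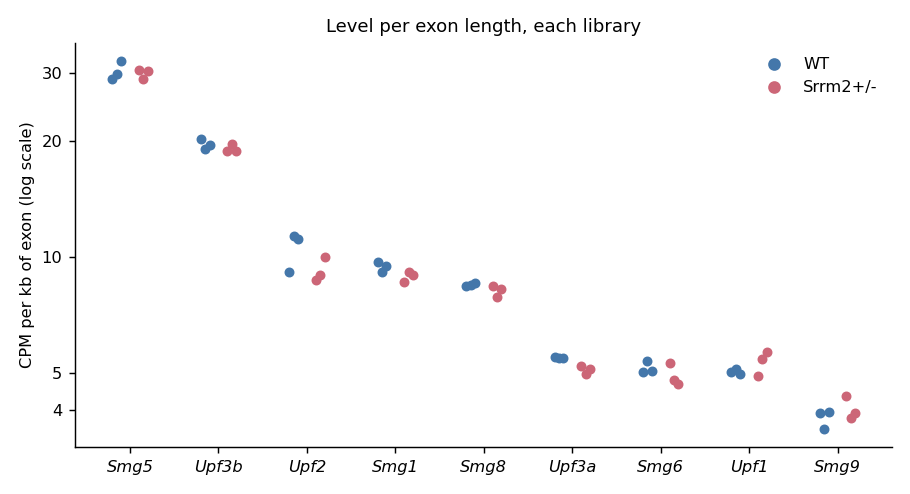
CPM per kb of exon (log scale) of the 9 NMD genes in each library, ordered by the WT mean. Each point is 1 library (blue WT, red Srrm2+/-). Smg5 and Upf3b stand above the rest in all 6 libraries, from 18.8 to 32.2 CPM per kb, and Smg9 is lowest at 3.58 to 4.36 CPM per kb.

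SMG1 shares its catalytic family with ATM and ATR, which signal DNA damage, with PRKDC, the DNA-dependent protein kinase of end joining, and with MTOR, the growth kinase, and all of these need the TTT and R2TP chaperones for assembly. In this list of 12 genes 3 fell and 0 rose, with a median log2 fold change of 0.03. Over all tested genes 11.7% fell and 13.6% rose. The 3 that fell were all kinases. Atm (chr9:53439149-53536740) gave 104, 98.9 and 92.0 CPM in WT and 70.5, 81.7 and 78.4 CPM in Srrm2+/-, with no overlap (log2 fold change -0.35, SE 0.06, adjusted p 0.00382). Atr (chr9:95857597-95951781) gave 283, 269 and 270 against 232, 241 and 234 CPM (log2 fold change -0.22, SE 0.04, adjusted p 0.00355). Prkdc, named after its values were seen, gave 156, 150 and 158 against 132, 140 and 137 CPM (log2 fold change -0.18, SE 0.04, adjusted p 0.00961). Mtor, also named after its values were seen, was not called, with 62.1, 65.1 and 65.4 against 67.3, 64.5 and 73.5 CPM.

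Whether Smg1 moved differently from its relatives was compared as a ratio within each library, a comparison added after the values were seen. Atm to Smg1 was 0.446, 0.452 and 0.406 in WT and 0.343, 0.372 and 0.364 in Srrm2+/-, a difference of -0.27 on the log2 scale. The ratio of Atr to Smg1 differed by -0.14 and that of Prkdc to Smg1 by -0.10, each with no overlap between the groups. These 3 differences each gave the smallest p the design allows (exact two-sided permutation p = 0.1, adjusted over 4 ratios 0.133), so they could not pass a threshold of 0.05. For Mtor to Smg1 the difference was 0.17 (exact permutation p = 0.2, adjusted 0.2).

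The EJC marks spliced junctions and is what UPF3 recognises. Of its 10 genes, 2 rose and 1 fell, with a median log2 fold change of 0.04. These 3 calls of 10 stand beside 25.3% of all tested genes called. Eif4a3, the RNA-clamping helicase of the complex, rose from 134, 135 and 133 CPM to 158, 143 and 151 CPM (log2 fold change 0.17, adjusted p 0.02). The peripheral factor Rnps1 rose from 105, 104 and 102 to 116, 110 and 119 CPM (log2 fold change 0.15, adjusted p 0.0299). Pnn, another peripheral factor that resides in nuclear speckles, fell from 138, 144 and 137 to 123, 123 and 131 CPM (log2 fold change -0.15, adjusted p 0.0268). The groups did not overlap for any of these genes. With 1 library left out the log2 fold changes stayed at 0.13 to 0.21 for Eif4a3, 0.12 to 0.18 for Rnps1 and -0.18 to -0.13 for Pnn, while the adjusted p passed 0.05 in several of these smaller fits. Eif4a3 was not called without WT replicate 3, Srrm2+/- replicate 1 or Srrm2+/- replicate 3 (adjusted p 0.0609, 0.0585 and 0.0602). Rnps1 lost its call without WT replicate 2 or 3 and without Srrm2+/- replicate 1 or 3 (adjusted p 0.0689, 0.0929, 0.077 and 0.109). For Pnn this occurred without WT replicate 2 and without Srrm2+/- replicate 1 or 2 (adjusted p 0.0976, 0.0847 and 0.0962). The number of EJC genes called was then 0 without Srrm2+/- replicate 1 and 1 without WT replicate 2, WT replicate 3 or Srrm2+/- replicate 3.

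Among 9 other cofactors, 2 rose and 1 fell, with a median of 0.04, where 25.3% of all tested genes were called. Stau2 and Stau1 encode Staufen proteins, which recruit UPF1 to double-stranded RNA. Stau2 rose from 8.85, 7.72 and 8.68 to 10.2, 10.1 and 10.6 CPM (log2 fold change 0.29, adjusted p 0.0272), and Stau1 from 21.4, 21.9 and 21.4 to 23.7, 24.3 and 24.8 CPM (log2 fold change 0.17, adjusted p 0.0276). With 1 library left out the log2 fold changes were 0.24 to 0.33 for Stau2 and 0.16 to 0.19 for Stau1. Stau2 was not called without WT replicate 2 or any single Srrm2+/- replicate (adjusted p 0.0536 to 0.0932). Stau1 was not called without any single WT replicate, without Srrm2+/- replicate 2 or 3 (adjusted p 0.0565 to 0.0985), or by DESeq2 (adjusted p 0.0692). Mov10, an RNA helicase that binds UPF1, fell. It gave 85.3, 91.7 and 88.8 CPM in WT and 66.6, 66.9 and 69.6 CPM in Srrm2+/- (log2 fold change -0.39, SE 0.04, adjusted p 0.000223), and was called in each of the 14 alternatives. In this list 1 gene was called without WT replicate 2, Srrm2+/- replicate 2 or Srrm2+/- replicate 3.

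The 5 genes of translation termination and poly(A) binding, which set how fast a ribosome leaves the stop codon, gave 0 calls and log2 fold changes of -0.02 to 0.08. Of 20 genes for the enzymes that degrade mRNA, 2 rose and 1 fell, with a median of 0.02. For both lists the share called over all tested genes was 25.3%. Parn, a poly(A)-specific ribonuclease, rose from 43.4, 45.3 and 47.0 to 52.2, 51.4 and 53.1 CPM (log2 fold change 0.21, adjusted p 0.0085). Dis3l, a catalytic subunit of the cytoplasmic exosome, rose from 14.2, 15.8 and 14 to 17.1, 16.7 and 18.2 CPM (log2 fold change 0.24, adjusted p 0.0309), and was not called without WT replicate 1 or 3 or Srrm2+/- replicate 1 or 3 (adjusted p 0.0594 to 0.115), with log2 fold changes of 0.20 to 0.30 over the 6 libraries left out in turn. Dcp2, the decapping enzyme, fell from 172, 151 and 158 to 118, 134 and 128 CPM (log2 fold change -0.34, adjusted p 0.00368).

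Transcripts that NMD is known to restrain were listed separately. Of 14 listed genes 13 were tested (Snhg1 was not analysed here), and 4 rose and 5 fell, so that 9 of 13 were called beside 25.3% of all tested genes (13.6% higher and 11.7% lower), with a median log2 fold change of -0.04 and a range of -0.46 to 1.49. The 4 that rose, Myc, Atf3, Gadd45b and Arc, are known as genes whose transcription is induced rapidly by growth factors or stress. Whether their transcription or their decay differed here was not tested. Myc gave 2.87, 3.70 and 3.85 CPM in WT and 9.64, 9.16 and 10.5 CPM in Srrm2+/- (log2 fold change 1.49, SE 0.13, adjusted p 5.42e-05), and Atf3 gave 4.69, 5.19 and 4.56 against 12.5, 9.73 and 8.95 CPM (log2 fold change 1.11, SE 0.13, adjusted p 0.000416). Named after their values were seen, Gadd45b rose by 1.05 on the log2 scale (adjusted p 0.000142), and Arc rose by 0.77 (adjusted p 0.00027). Arc-201, a principal transcript of Arc, has 2 exon junctions after its stop codon, the last of them 757 bases downstream. The principal transcripts of Myc, Atf3 and Gadd45b have 0. With 1 principal transcript taken per gene, 1 of 10 in this list had a junction more than 50 bases after the stop codon. Smad7 has 2 transcripts annotated as principal. Smad7-201, the 1 counted, has 0 junctions after its stop codon, while Smad7-202 has 1, 86 bases downstream.

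Of the 5 that fell, Atf4 and Ddit3 are transcription factors of the integrated stress response. Atf4 went from 394, 398 and 391 to 325, 310 and 324 CPM (log2 fold change -0.30, SE 0.04, adjusted p 0.000475). Ddit3 gave 53.5, 65.2 and 67.2 CPM in WT and 51.6, 45.6 and 37.9 CPM in Srrm2+/- (log2 fold change -0.46, SE 0.12, adjusted p 0.0191), and lost its call without WT replicate 2 or 3 or Srrm2+/- replicate 2 or 3 (adjusted p 0.0533 to 0.066). The other 3, named after their values were seen, were the snoRNA host genes Snhg12 (-0.27, adjusted p 0.0111) and Zfas1 (-0.22, adjusted p 0.0462) and the signalling inhibitor Smad7 (-0.20, adjusted p 0.0344). Zfas1 was not called without WT replicate 2 or 3 or Srrm2+/- replicate 2 or 3 (adjusted p 0.0845 to 0.152), nor Smad7 without WT replicate 1 or 2 or any single Srrm2+/- replicate (adjusted p 0.0626 to 0.115). Gas5, also a snoRNA host and a much used reporter of NMD, and also named after its values were seen, gave 637, 634 and 653 CPM in WT and 598, 618 and 618 CPM in Srrm2+/- and was not called (log2 fold change -0.07, adjusted p 0.213).

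**Figure D4:**
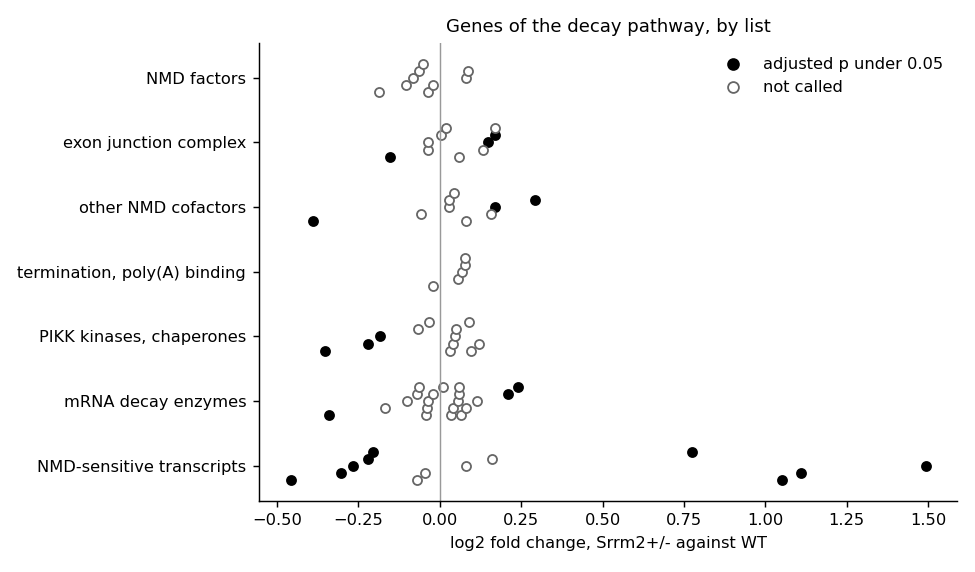
Log2 fold change, Srrm2+/- against WT, of each tested gene of the pathway lists, 1 point per gene. Filled points passed an adjusted p under 0.05 and open points did not; points are spread vertically for legibility. The 9 NMD factors are all open and lie between -0.19 and 0.09, while the NMD-sensitive transcripts reach from -0.46 to 1.49.

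Over the 6 lists together, 21 of 69 tested genes were called (30.4%), 10 higher and 11 lower, beside 25.3% of all genes. Among protein-coding genes in the expression range of the 9 members the share called was 33.1%. Without Srrm2+/- replicate 3 the count over the 6 lists was 13. The lists differed in their calls, as 9 of the 21 came from the 13 NMD-sensitive transcripts and each of the other lists gave 0 or 3. The 9 core factors gave 0 calls, and their difference from the rest was not tested.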

How the data were processed

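Total RNA of 3 WT and 3 Srrm2+/- samples was sequenced in pairs of 75-base reads, from 600 ng of RNA per library, made with a stranded kit. Reads were assigned by the authors with Kallisto 0.46.1 to the transcripts of GENCODE release M24 (build mm10, GRCm38), and the deposited values are estimated counts per gene without normalisation. Reads that fit several transcripts are split between them. At 31-base words, 0% (Smg8) to 3.67% (Upf3a) of the words of a member also occurred in other genes. The strand setting was not given in the sources used here. Spike-ins were added by the authors and not used here.

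Groups and replicate numbers came from the sample titles. P-values set the difference between the groups against the spread of these samples. The samples are replicates of 1 WT line and 1 gene-trap line, so spread between clones is not covered. Every pair of libraries differed by more than sampling noise (chi-square over its degrees of freedom of 14.7 or more). Estimated counts were rounded, filtered with filterByExpr (minimum count 10, minimum total 15) and fitted with edgeR 4.0.16 (TMM, glmQLFit, glmQLFTest, two-sided, genotype as the sole term) in R 4.3.3, with Benjamini-Hochberg adjustment over 18905 genes. Standard errors were the log2 fold change over the square root of F, and 95% intervals used the t distribution with the fit's degrees of freedom (8.8). Symbols, coordinates (counted from 1) and sequences were those of GENCODE M21, also GRCm38, where 42156 identifiers matched. Ratios of genes were compared over libraries by exact two-sided permutation (20 splits). Length was the union of annotated exons. The fit was tested on simulated counts.

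The genes named were Srrm2, the 9 members, up to 2 called genes with the largest rise and 2 with the largest fall of each pathway list, and the 3 genes nearest to the member with the largest change. A further gene of the lists and the naming rule is not reported here. Others are marked as named after their values were seen. The members and lists were chosen with earlier results of these data known. Alternatives were RLE and upper quartile scaling, DESeq2 1.42.0, limma 3.58.1 (voom), a looser filter (1 count in total) and a stricter one (1 CPM throughout a group), leaving out mitochondrial genes, rRNA and short RNA, a block for the replicate number, leaving out each library, and the longest transcript as length.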

Additional observations from a re-analysis of the deposited data

How the results depend on the processing

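The 9 NMD factors gave 0 calls under RLE and upper quartile scaling, DESeq2, limma voom, both other filters and removal of short RNA. With 1 library left out the count ranged from 0 to 1, the 1 being Upf2 without WT replicate 1 (log2 fold change -0.28, called lower). Calls among the other NMD genes ranged from 13 (without Srrm2+/- replicate 3) to 18 (without WT replicate 1) against 21 with all libraries; over all genes the calls then ranged from 3515 to 4122 against 4781, with fewer samples in the fit. Smg5, at -0.02 with all libraries, ranged from -0.05 to 0.03 with 1 left out and turned positive without WT replicate 3 (0.03) or without Srrm2+/- replicate 2 (0.0048). The cause of that turn was not tested. The 7.67-fold span of levels per length became 9.1 with the longest transcript, whose lengths replace the exon union, and lay between 7.56 and 7.83 with 1 library left out. The median log2 fold change of all genes lay between -0.004 and 0.01 under the scalings, tools and filters.

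Replicate numbers did not pair the samples, since deviations of same-numbered libraries correlated at -0.03 for each number. With the replicate block, 0 of 9 members were called, as were 15 of the other NMD genes and 4166 genes in all; Srrm2 kept its call. For the 4 ratios a balanced block cannot change the difference of the group means, and no blocked permutation test of them is given here. The block gave adjusted p of 0.0539 for Rnps1, 0.0522 for Pnn, 0.0611 for Stau1, 0.0674 for Dis3l, 0.0519 for Ddit3 and 0.0988 for Zfas1. The members had 767 counts or more in each library; how depth and the number of libraries bear on the width of their intervals was not tested.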
